A study of Mus musculus with 9 samples.

Results

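The genes described here are 9 factors of naive mouse pluripotency outside the Klf, Sox and Pou families: Nanog, Esrrb, Tfcp2l1, Tbx3, Zfp42, Nr5a2, Prdm14, Spic and Tcl1. They were found by gene symbol in the count tables, where 9 of 9 were present among 40213 symbols. All 9 passed the filter on low counts. Of these, 8 encode DNA-binding regulators, whereas Tcl1 encodes a coactivator of the kinase AKT and is no transcription factor. Total RNA of mouse embryonic stem (ES) cells was sequenced in 9 libraries, 3 per group. The series asks whether EWS-OCT4, in which OCT4 is fused to the RNA-binding protein EWS, can stand in for OCT4 in self-renewal. The EWS-OCT4 and OCT4 groups are stable lines labelled Niwa EWS-OCT4 and Niwa OCT4, and both received 1 µg/ml doxycycline to lower their endogenous OCT4. The third group is J1, a widely used ES cell line, for which the labels name no doxycycline of its own. All 3 groups grew in ES cell medium with LIF, a cytokine that sustains self-renewal. Between either stable line and J1, the introduced construct, the host line and the doxycycline change together and cannot be told apart. Between EWS-OCT4 and OCT4 cells, the construct and the stable line that carries it change together, and these cannot be told apart either. The labels do not say whether the 3 libraries of a group came from separate cultures or clones, so p-values measure the spread between these libraries only.

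Naive pluripotency is the state of the early epiblast and of mouse ES cells held in LIF. It is maintained by a network in which OCT4 and SOX2 occupy enhancers together with NANOG, ESRRB, TFCP2L1, TBX3 and KLF factors, and in which members can partly replace each other. LIF feeds the network through STAT3, WNT through relief of TCF7L1 repression of Esrrb, and the FGF and ERK pathway opposes it.

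Promoter sequence is shown for 3 genes, Nanog and Zfp42 because their windows hold an element read by OCT4, and Tfcp2l1 because its rise in EWS-OCT4 versus J1 cells was the largest of the 9. Windows span 250 bases before to 50 bases after a start site (RefSeq, build GRCm38.p6), and 7 of the 9 genes have one, all but Tbx3 and Prdm14. Capitals mark motif matches. Nanog has 2 windows, for different start sites, and the printed one (chr6:122707315-122707614, plus strand) holds a minus-strand match to the OCT4-SOX2 composite TTGTNATGC whose first base lies at -148 from the start site, overlapped by a short SOX site ACAATG at -143. Counted from the other start site, the same matches lie at -72 and -67. The Zfp42 window (chr8:43306960-43307259, minus strand) holds the octamer ATGCAAAT on the strand opposite the gene, with its first base at -186. The Tfcp2l1 window (chr1:118627695-118627994, plus strand) holds no match to any motif searched.
Nanog: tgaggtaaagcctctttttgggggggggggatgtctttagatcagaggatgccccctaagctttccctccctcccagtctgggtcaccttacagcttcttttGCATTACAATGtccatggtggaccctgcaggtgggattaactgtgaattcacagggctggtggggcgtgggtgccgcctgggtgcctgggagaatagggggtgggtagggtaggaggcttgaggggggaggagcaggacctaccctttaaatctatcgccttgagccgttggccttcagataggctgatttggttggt
Zfp42: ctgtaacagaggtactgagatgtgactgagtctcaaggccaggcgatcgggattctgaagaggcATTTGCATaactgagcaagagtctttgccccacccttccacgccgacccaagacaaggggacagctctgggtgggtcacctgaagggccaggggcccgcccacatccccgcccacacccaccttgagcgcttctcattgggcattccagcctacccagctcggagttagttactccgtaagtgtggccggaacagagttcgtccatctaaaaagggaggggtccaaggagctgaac
Tfcp2l1: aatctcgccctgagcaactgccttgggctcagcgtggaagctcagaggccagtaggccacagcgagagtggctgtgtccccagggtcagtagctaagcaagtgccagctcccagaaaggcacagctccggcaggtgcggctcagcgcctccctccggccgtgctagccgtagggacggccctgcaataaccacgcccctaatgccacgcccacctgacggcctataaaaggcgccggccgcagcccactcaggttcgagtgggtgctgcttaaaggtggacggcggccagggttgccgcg
On both strands, the composite is found in 0.731% of all 32851 mouse promoter windows, the octamer in 1.74% and the short SOX site in 12.6%. Esrrb also holds a short SOX site in 1 of its windows. No window of these genes holds the ESRRB and NR5A2 element TCAAGGTCA (0.423% of all windows), its short form AAGGTCA (4.72%), the STAT3 element TTCCNGGAA (1.15%) or the ETS element GAGGAAGT (3.20%). A match is a description of letters and not a binding site, and no match says only that these letters are not in these windows.

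Pou5f1, which encodes OCT4, checks the labels. Its level in CPM (counts scaled to library size, with TMM factors) was 25.6, 29.3 and 25.6 in EWS-OCT4 cells, 165, 168 and 162 in OCT4 cells, and 522, 639 and 545 in J1 cells. Both stable lines were thus below J1 without overlap, EWS-OCT4 cells by 21.2-fold and OCT4 cells by 3.45-fold. The tables do not separate an introduced OCT4 sequence from the endogenous gene. Libraries held 21149358 to 24786305 counts. The 6 defining ES cell markers, Pou5f1 among them, were all above 1 CPM in every group. Their summed level was 1782 to 1855 CPM in EWS-OCT4, 1808 to 1897 CPM in OCT4 and 2506 to 2892 CPM in J1 cells. These sums include Pou5f1, which averaged 26.8, 165 and 569 CPM in the same order. At an edgeR adjusted p under 0.05, 1 of the 6 was higher and 3 lower in EWS-OCT4 versus J1 cells. In OCT4 versus J1 cells, 0 were higher and 5 lower. Over all genes tested, 30.3% were higher and 31.6% lower in EWS-OCT4 versus J1 cells, and 34.3% and 32.7% in OCT4 versus J1 cells.

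All 9 factors were detected in every library of both stable lines, and more of them rose than fell against J1. In EWS-OCT4 versus J1 cells, 5 of the 9 rose (Nanog, Tfcp2l1, Tbx3, Prdm14 and Tcl1), Zfp42 fell, and Esrrb, Nr5a2 and Spic did not pass the test. Calls are at an adjusted p under 0.05 in the quasi-likelihood test of edgeR, adjusted by Benjamini-Hochberg over the 16562 genes tested. Of all those genes, 61.9% were called in this comparison, 30.3% higher and 31.6% lower. In OCT4 versus J1 cells, 7 of the 9 rose and 2 fell, Esrrb and Zfp42, beside 67.0% of all genes called, 34.3% higher and 32.7% lower. In EWS-OCT4 versus OCT4 cells, Esrrb, Zfp42 and Tcl1 were higher, Tbx3, Nr5a2, Prdm14 and Spic were lower, and Nanog and Tfcp2l1 did not pass. Of all genes, 66.5% were called there, 31.9% higher and 34.6% lower. The share of the 9 genes called was near that of all genes in the 2 comparisons with EWS-OCT4 cells. The 3 comparisons share groups, and the 2 with J1 share its libraries, so their calls are not independent.

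In EWS-OCT4 versus OCT4 cells, the median size of the log2 fold change was 0.38 over the 9 genes and 0.52 over all genes tested. Against J1 it was 0.78 over the 9 genes and 0.45 over all genes in EWS-OCT4 cells, and 0.96 against 0.54 in OCT4 cells. The signed median was -0.08 for EWS-OCT4 versus OCT4, 0.44 for EWS-OCT4 versus J1 and 0.50 for OCT4 versus J1, beside -0.03, 0.00 and 0.01 over all genes. At least 2-fold changes were seen in 2 of the 9 genes between EWS-OCT4 and OCT4 cells (Spic and Tcl1), 2 between EWS-OCT4 and J1 cells (Tfcp2l1 and Tcl1) and 4 between OCT4 and J1 cells (Tfcp2l1, Tbx3, Zfp42 and Spic). The shares of all genes were 25.3%, 21.8% and 27.3% in the same order. The groups' values did not overlap for 8 of the 9 genes in EWS-OCT4 versus OCT4, 8 in EWS-OCT4 versus J1 and 9 in OCT4 versus J1. Over all genes tested, 72.9%, 65.7% and 68.4% did not overlap in these comparisons, so such separation was common. A two-sided exact permutation test of log2(CPM + 1) gave p = 0.1 for each of these, the smallest that 3 against 3 libraries allow.

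**Figure D1:**
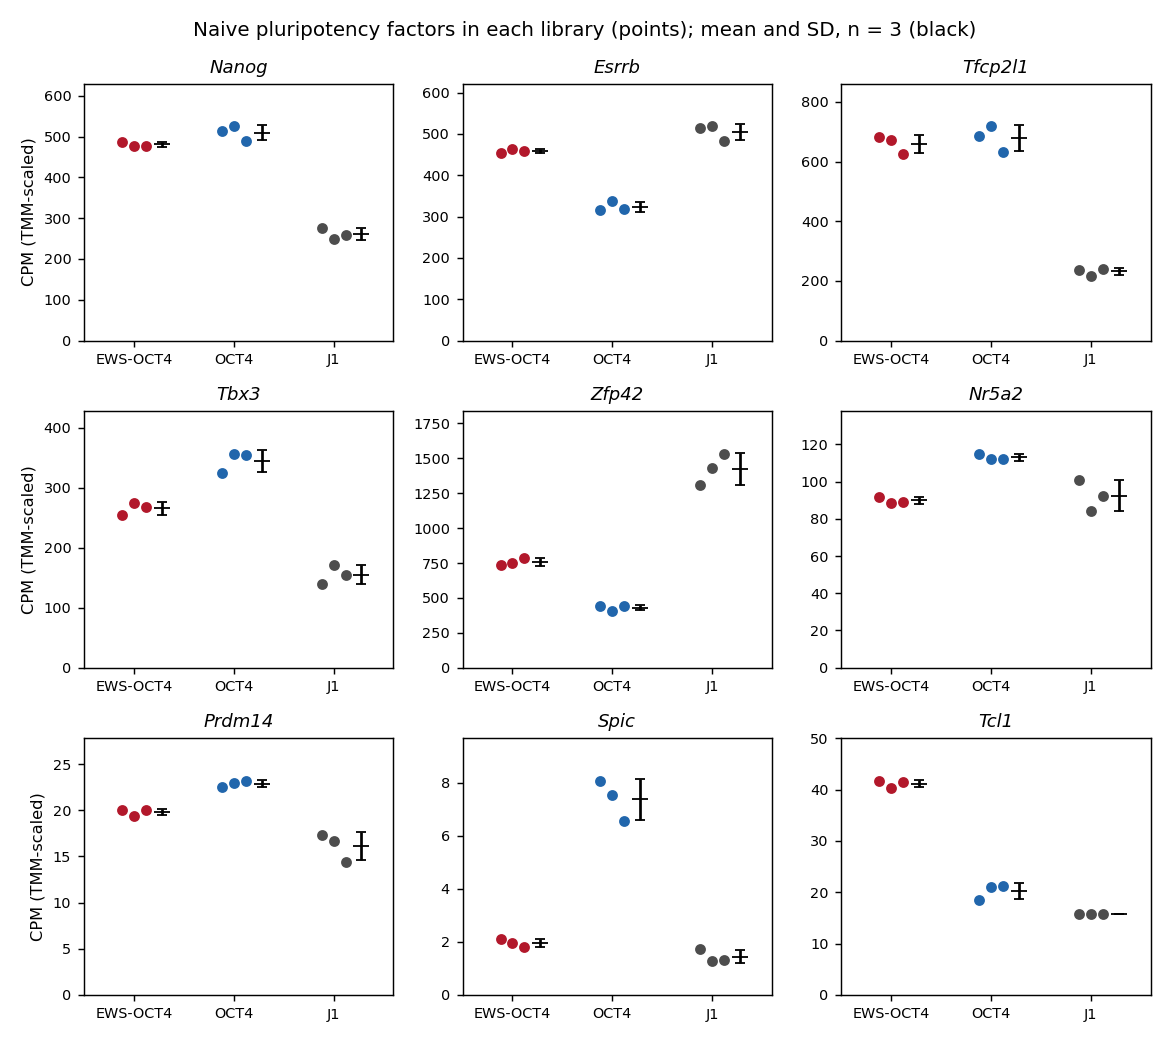
Level of each naive factor in every library (y axis, CPM scaled by TMM; points are libraries, black bars the mean and SD of 3), with EWS-OCT4, OCT4 and J1 from left to right. Nanog, Tfcp2l1 and Tbx3 lie above J1 in both stable lines, Zfp42 lies below J1 in both, Spic is highest in OCT4 cells and Tcl1 in EWS-OCT4 cells.

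**Figure D2:**
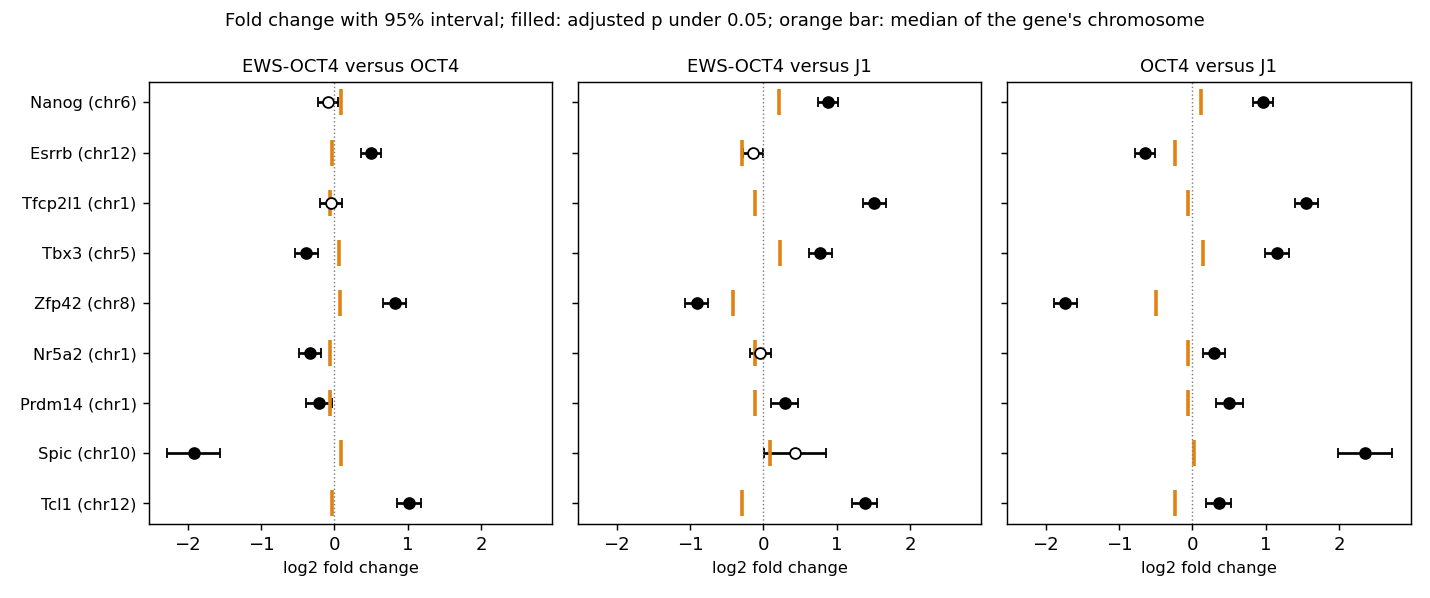
Log2 fold change of each gene (x axis) in the 3 comparisons, with its 95% interval. Filled points passed the adjusted p of 0.05. Orange bars give the median of genes on the same chromosome that averaged 5 CPM or more. The largest value is that of Spic in OCT4 versus J1 cells, 2.35, and the most negative is that of Spic in EWS-OCT4 versus OCT4 cells, -1.92.

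Nanog encodes the homeodomain factor that lets ES cells self-renew when LIF is scarce. It had 487, 478 and 478 CPM in EWS-OCT4 cells, 514, 525 and 489 CPM in OCT4 cells, and 277, 249.8 and 258 CPM in J1 cells. The stable lines lay close together and every library of both was above every J1 library. Nanog was 1.84-fold higher in EWS-OCT4 than in J1 cells (log2 fold change 0.88 ± 0.0660, SE; edgeR adjusted p = 4.25e-09). In OCT4 cells it was 1.95-fold higher than in J1 (0.96 ± 0.0660; edgeR adjusted p = 6.46e-10). Between EWS-OCT4 and OCT4 cells, the difference did not pass the test (log2 -0.08, 95% interval -0.22 to 0.055, edgeR adjusted p = 0.277). Even so, the 3 EWS-OCT4 libraries were all below the 3 OCT4 libraries. Nanog lies on chromosome 6, whose median log2 fold change was 0.21 in EWS-OCT4 versus J1 and 0.11 in OCT4 versus J1 cells. The part of this in the rise of Nanog was not tested. Of the 31-base words in Nanog transcripts, 10.7% (239) also occur in transcripts of other genes, 103 of them in the pseudogene Nanog-ps1. Part of its counts could thus be split by the authors' counting.

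Tfcp2l1 and Tbx3 encode factors that can sustain self-renewal when overexpressed, Tfcp2l1 as a target of STAT3 and Tbx3 downstream of PI3K signalling. Tfcp2l1 had 681, 674 and 624 CPM in EWS-OCT4 cells, 687, 718 and 631 CPM in OCT4 cells, and 238, 217 and 240.3 CPM in J1 cells. The stable lines overlapped, and J1 lay far below both. Tfcp2l1 was 2.85-fold higher in EWS-OCT4 than in J1 cells (log2 fold change 1.51 ± 0.0738; edgeR adjusted p = 1.82e-11) and 2.93-fold higher in OCT4 than in J1 cells (1.55 ± 0.0739; 5.4e-12). Its difference between EWS-OCT4 and OCT4 cells was -0.04 on the log2 scale, with a 95% interval of -0.19 to 0.11 (edgeR adjusted p = 0.629).

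Tbx3, a T-box factor, had 254, 275 and 268 CPM in EWS-OCT4 cells, 324, 357 and 355 CPM in OCT4 cells, and 139.5, 171 and 154 CPM in J1 cells. The 3 groups were ordered OCT4, EWS-OCT4, J1 without overlap. It was 1.72-fold higher in EWS-OCT4 than in J1 cells (log2 0.78 ± 0.0774; edgeR adjusted p = 1.42e-07), 2.23-fold higher in OCT4 than in J1 cells (1.16 ± 0.0778; 4.81e-10), and lower in EWS-OCT4 than in OCT4 cells (-0.38 ± 0.0766; 0.000298). The antisense gene Tbx3os1 overlaps Tbx3, and whether counting used strand is not given in the sources used here, so their reads cannot be told apart. Tbx3os1 had the same order, with 1.78, 1.82 and 2.15 CPM in EWS-OCT4 cells, 2.86, 3.84 and 3.11 CPM in OCT4 cells, and 0.763, 1.28 and 0.705 CPM in J1 cells. Its counts of at most 85 per library are small beside those of Tbx3. Tbx3 lies on chromosome 5, whose median log2 fold change was 0.22 in EWS-OCT4 versus J1 and 0.15 in OCT4 versus J1 cells. The part of this in the rise of Tbx3 was not tested.

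The 2 orphan nuclear receptors in the set moved differently from each other. Esrrb, which can replace Nanog in self-renewal, had 453, 464 and 459.6 CPM in EWS-OCT4 cells, 315, 338 and 318 CPM in OCT4 cells, and 515, 518 and 482 CPM in J1 cells. EWS-OCT4 cells were near J1, and OCT4 cells were well below both. Esrrb was 1.42-fold higher in EWS-OCT4 than in OCT4 cells (log2 0.50 ± 0.0643; edgeR adjusted p = 2.19e-06) and fell in OCT4 versus J1 cells (-0.64 ± 0.0644; 9.65e-08). Between EWS-OCT4 and J1 cells the log2 difference was -0.14, with a 95% interval of -0.27 to -0.002 (edgeR adjusted p = 0.0727). That p ranged from 0.0081 to 0.222 over 19 alternatives and passed in 5. One was the fit without J1 replicate 3 (0.0461), and another took TMM factors without chromosomes 8, 11, 12, X and Y, where the log2 difference was -0.213. Esrrb lies on chromosome 12. Genes there that averaged 5 CPM or more had a median log2 fold change of -0.29 in EWS-OCT4 versus J1 cells. In OCT4 versus J1 cells the median was -0.24. Over all genes that averaged 5 CPM or more, the medians were 0.05 and -0.01. The part of this shift in the fold changes of Esrrb was not tested.

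Nr5a2 (LRH-1), a nuclear receptor that binds Pou5f1 regulatory regions and can replace OCT4 in reprogramming, had 91.8, 88.7 and 89.1 CPM in EWS-OCT4 cells, 115, 112 and 112 CPM in OCT4 cells, and 101, 84.3 and 92.0 CPM in J1 cells. OCT4 cells were above both other groups, which overlapped each other. Nr5a2 was lower in EWS-OCT4 than in OCT4 cells (log2 -0.33 ± 0.0697; edgeR adjusted p = 0.000437) and 1.22-fold higher in OCT4 than in J1 cells (0.29 ± 0.0696; 0.00126). In EWS-OCT4 versus J1 cells the difference was -0.04, with a 95% interval of -0.19 to 0.11 (edgeR adjusted p = 0.637).

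Zfp42 encodes REX1, a zinc finger protein used as a marker of the naive state, and fell in both stable lines. It had 736, 749.9 and 789 CPM in EWS-OCT4 cells, 439, 407 and 441 CPM in OCT4 cells, and 1307, 1434 and 1534 CPM in J1 cells. The order was J1, EWS-OCT4, OCT4, without overlap. EWS-OCT4 cells held 53.2% and OCT4 cells 30.1% of the J1 mean. The log2 fold change was -0.91 ± 0.0738 in EWS-OCT4 versus J1 (edgeR adjusted p = 1.13e-08) and -1.73 ± 0.0754 in OCT4 versus J1 cells (1.69e-12). Zfp42 was 1.77-fold higher in EWS-OCT4 than in OCT4 cells (0.82 ± 0.0739, edgeR adjusted p = 2.89e-08). The gene lies on chromosome 8, whose median log2 fold change was -0.41 in EWS-OCT4 versus J1 and -0.49 in OCT4 versus J1 cells. The part of this in the fall of Zfp42 was not tested, and between EWS-OCT4 and OCT4 cells the chromosome median was 0.08. Of its 31-base words, 13.4% occur in other genes, all 255 of them in the pseudogene Zfp42-ps1, so its counts carry that uncertainty.

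Prdm14, a PR-domain factor that silences FGF receptor and de novo DNA methyltransferase genes in ES cells, had 20.0, 19.4 and 20.0 CPM in EWS-OCT4 cells, 22.5, 23.0 and 23.2 CPM in OCT4 cells, and 17.3, 16.7 and 14.4 CPM in J1 cells. The groups were ordered OCT4, EWS-OCT4, J1 without overlap, over a narrow range. It was 1.23-fold higher in EWS-OCT4 than in J1 cells (log2 0.29 ± 0.0873; edgeR adjusted p = 0.00749) and 1.42-fold higher in OCT4 than in J1 cells (0.50 ± 0.0865; 5.71e-05). The call of lower in EWS-OCT4 than in OCT4 cells (-0.21 ± 0.0855; edgeR adjusted p = 0.0382) passed in only 9 of 19 alternatives, whose adjusted p ran from 0.0147 to 0.16. Leaving out any 1 of the 6 libraries compared ended it, with p from 0.0602 to 0.16.

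Genes that PRDM14 represses or works with did not share 1 direction. Dnmt3b, a de novo methyltransferase, averaged 175 ± 0.242 CPM in EWS-OCT4, 87.1 ± 6.47 CPM in OCT4 and 87.5 ± 5.52 CPM in J1 cells (SD, n = 3 each). Dnmt3a, its paralog, averaged 46.0 ± 1.22, 87.8 ± 2.53 and 228 ± 9.24 CPM in the same groups. Fgfr2, an FGF receptor, averaged 12.9 ± 0.467 CPM in EWS-OCT4, 47.4 ± 0.207 CPM in OCT4 and 7.68 ± 0.817 CPM in J1 cells. Fgfr2, like Prdm14, was highest in OCT4 cells. Cbfa2t2, the corepressor that PRDM14 binds, fell in EWS-OCT4 versus J1 cells (log2 -0.70 ± 0.0658; edgeR adjusted p = 6.59e-08) and in OCT4 versus J1 cells (-0.36 ± 0.0652; 9.79e-05).

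Spic encodes an ETS-family factor of the PU.1 branch that is raised in ground-state ES cells, and was the lowest of the 9. It had 2.12, 1.95 and 1.81 CPM in EWS-OCT4 cells, 8.08, 7.54 and 6.55 CPM in OCT4 cells, and 1.73, 1.28 and 1.32 CPM in J1 cells. These rest on 44, 45 and 43 counts in EWS-OCT4, 175, 167 and 156 in OCT4, and 43, 32 and 28 in J1 libraries. OCT4 cells stood apart from both other groups, by 5.10-fold over J1 (log2 2.35 ± 0.176; edgeR adjusted p = 2.13e-09). Spic was lower in EWS-OCT4 than in OCT4 cells (-1.92 ± 0.170; edgeR adjusted p = 2.5e-08). The difference between EWS-OCT4 and J1 cells, 0.44 on the log2 scale with a 95% interval of 0.012 to 0.859, did not pass (edgeR adjusted p = 0.0692). It passed in 1 of 19 alternatives, the fit without J1 replicate 1 (0.0317; range 0.0317 to 0.195).

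Bhmt, Bhmt2 and Dmgdh, enzymes of choline and betaine breakdown reported to respond to SPIC in ES cells, were also highest in OCT4 cells. Bhmt had 0.288, 0.519 and 0.505 CPM in EWS-OCT4 cells, 34.7, 37.5 and 37.2 CPM in OCT4 cells, and 1.53, 1.08 and 0.658 CPM in J1 cells. Dmgdh averaged 0.259 ± 0.163 CPM in EWS-OCT4, 8.67 ± 1.22 CPM in OCT4 and 1.84 ± 0.0730 CPM in J1 cells (SD, n = 3 each). OCT4 cells thus stood apart here as they did for Spic. In EWS-OCT4 versus J1 cells the enzymes and Spic differed, since all 3 enzymes fell (Bhmt log2 -1.31 ± 0.315, edgeR adjusted p = 0.00159; Bhmt2 -3.87 ± 0.434, 6.2e-07; Dmgdh -2.77 ± 0.321, 9e-07) while the value of Spic was positive and did not pass. The enzymes rest on few counts in EWS-OCT4 libraries, at most 12 for Bhmt, 3 for Bhmt2 and 10 for Dmgdh.

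**Figure D3:**
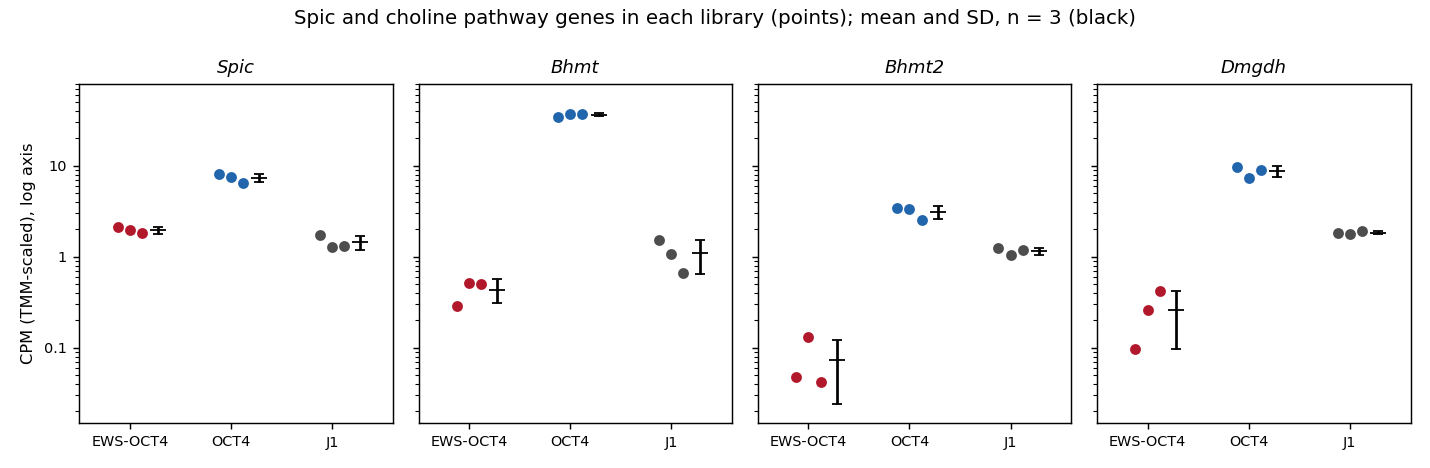
Level of Spic and of 3 choline pathway genes in every library (y axis, CPM on a log scale; points are libraries, black bars the mean and SD of 3), with EWS-OCT4, OCT4 and J1 from left to right. All 4 genes are highest in OCT4 cells, and the 3 enzymes, unlike Spic, are lowest in EWS-OCT4 cells.

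Tcl1, the AKT coactivator, was highest in EWS-OCT4 cells. It had 41.7, 40.3 and 41.5 CPM in EWS-OCT4 cells, 18.5, 21.1 and 21.2 CPM in OCT4 cells, and 15.8, 15.8 and 15.7 CPM in J1 cells. No groups overlapped, and the J1 libraries were nearly identical. Tcl1 was 2.03-fold higher in EWS-OCT4 than in OCT4 cells (log2 1.02 ± 0.0784; edgeR adjusted p = 3.62e-09) and 2.61-fold higher than in J1 (1.38 ± 0.0798; 1.5e-10). In OCT4 versus J1 cells it rose 1.28-fold (0.36 ± 0.0824; edgeR adjusted p = 0.000916). On chromosome 12, where Tcl1 lies with Esrrb, the median log2 fold change had the opposite sign to that of Tcl1 against J1. Akt1, a kinase that TCL1 binds, was also highest in EWS-OCT4 cells, at 33.7 ± 0.198 CPM, against 27.1 ± 0.259 CPM in OCT4 and 10.3 ± 0.903 CPM in J1 cells (SD, n = 3 each). Akt2, the other AKT kinase gene listed, was highest in OCT4 cells, at 43.1 ± 0.415 CPM in EWS-OCT4, 60.6 ± 2.56 CPM in OCT4 and 31.1 ± 1.22 CPM in J1 cells. The Tcl1b1, Tcl1b3, Tcl1b4 and Tcl1b5 paralogs had 0 counts in all 9 libraries.

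Per transcript length, the weight of the 9 genes among themselves shifted. With CPM divided by the longest transcript of each gene in kilobases, Zfp42 made up 44.9% ± 1.07 of the summed level in EWS-OCT4 cells, 31.9% ± 1.65 in OCT4 cells and 70.1% ± 2.22 in J1 cells (SD, n = 3 each). Nanog made up 23.7% ± 0.515 in EWS-OCT4, 31.4% ± 0.868 in OCT4 and 10.7% ± 1.03 in J1 cells. Zfp42 and Nanog were thus close to equal in OCT4 cells, with ranges of 30.0% to 33.1% and 30.5% to 32.2% that overlap, and far apart in J1 cells. The share of Esrrb lay between 9.68% and 11.8% in all 9 libraries. Tfcp2l1 had 7.75% ± 0.457 in EWS-OCT4, 9.98% ± 0.564 in OCT4 and 2.26% ± 0.166 in J1 cells, and Tbx3 had 5.80% ± 0.210, 9.46% ± 0.528 and 2.81% ± 0.242. Tcl1, Nr5a2, Prdm14 and Spic each held at most 3.32% in any library. Esrrb, Nr5a2 and Tcl1 have transcripts of very unequal length, 1344 to 4300, 1756 to 4733 and 535 to 1398 bases, so their level per length depends on the transcript taken. Unscaled for length, the summed level of the 9 genes was 2776 ± 13.5 CPM in EWS-OCT4, 2449.7 ± 56.0 CPM in OCT4 and 2703 ± 90.4 CPM in J1 cells. Per kilobase, the sum was 919 ± 11.2 in EWS-OCT4, 733 ± 6.46 in OCT4 and 1105 ± 53.8 CPM per kilobase in J1 cells.

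**Figure D4:**
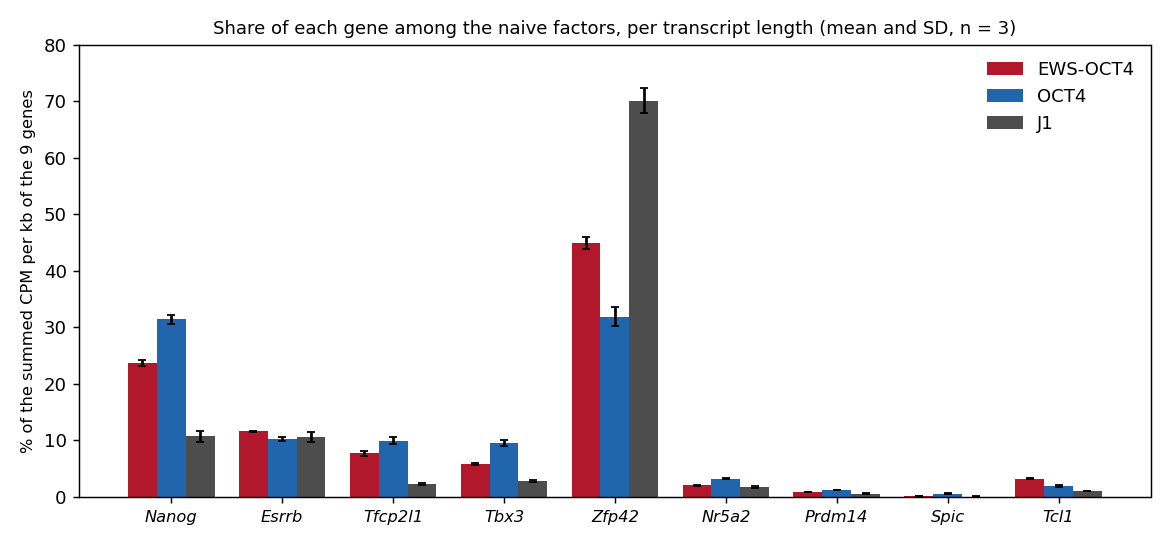
Share of each gene in the summed CPM per kilobase of the 9 genes (y axis, percent; bars are means of 3 libraries with SD), for EWS-OCT4, OCT4 and J1. Zfp42 holds 44.9% in EWS-OCT4, 31.9% in OCT4 and 70.1% in J1 cells, and Nanog holds 31.4% in OCT4 cells.

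Profiles over the 9 libraries were compared by the root mean square difference between log2 CPM values, each gene centred on its own mean. By the same measure the genes lay 0.162 (Nr5a2) to 1.007 (Spic) from a flat profile, so a gene that barely moves has small distances. Nanog and Tbx3, which lay 0.438 and 0.491 from a flat profile, differed by 0.172. Nr5a2 and Prdm14 differed by 0.163, no less than Nr5a2 from a flat profile. The EWS-OCT4 and J1 libraries overlapped for Nr5a2 and did not for Prdm14. Zfp42 and Spic were farthest apart (1.686). Among 8730 genes that averaged 10 CPM or more, the genes most like each were Atg14 for Nanog (0.050), Cct3 for Esrrb (0.049), Eef2kmt for Tfcp2l1 (0.063), Dvl3 for Tbx3 (0.058), Mkrn1 for Zfp42 (0.112), Gas2l3 for Nr5a2 (0.047), Rchy1 for Prdm14 (0.045), Clcn5 for Spic (0.117) and Ciao3 for Tcl1 (0.072). The second for Tcl1 was Dppa2 (0.114), a gene of the core pluripotency list, at 139 ± 5.88 CPM in EWS-OCT4, 81.2 ± 6.01 CPM in OCT4 and 58.8 ± 2.59 CPM in J1 cells. The likeness is over 9 libraries that fall into 3 groups and share their scaling, and it does not require the same order of the groups.

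Of 15 other naive genes tested, 3 were higher and 9 lower in OCT4 versus J1 cells (median log2 fold change -0.38). Klf2, a factor that links ERK signalling to the network, was among those that fell, at 60.2 ± 0.830 CPM in OCT4 and 175 ± 14.7 CPM in J1 cells (SD, n = 3 each). In EWS-OCT4 versus J1 cells 9 were higher and 3 lower (median 0.32), and in EWS-OCT4 versus OCT4 cells 11 were higher and 2 lower (median 0.85). Over all genes tested, 34.3% were higher and 32.7% lower in OCT4 versus J1 cells. The shares were 30.3% and 31.6% in EWS-OCT4 versus J1, and 31.9% and 34.6% in EWS-OCT4 versus OCT4 cells. Counts in the lists below stand beside these same shares. Nr0b1 (DAX1), which binds NR5A2 and ESRRB, averaged 77.3 ± 3.12 CPM in EWS-OCT4 cells, 13.5 ± 0.284 CPM in OCT4 cells and 24.4 ± 2.00 CPM in J1 cells. Gbx2, a STAT3 target, averaged 30.8 ± 0.596 CPM in EWS-OCT4, 4.35 ± 0.282 CPM in OCT4 and 5.35 ± 0.338 CPM in J1 cells. Both were highest in EWS-OCT4 cells, as was Tcl1 among the 9 factors.

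Of 18 core and general pluripotency genes, 12 were higher and 3 lower in EWS-OCT4 versus OCT4 cells (median log2 fold change 0.68), 10 and 4 in EWS-OCT4 versus J1 cells (0.28), and 2 and 13 in OCT4 versus J1 cells (-0.34). This list contains the 6 ES cell markers counted above, so the 2 sets of counts are not separate. Pou5f1, the targeted gene, is among those lower in each comparison. L1td1, an RNA-binding protein of pluripotent cells, averaged 999 ± 19.0 CPM in EWS-OCT4 and 219 ± 20.4 CPM in OCT4 cells. The 16 signalling genes, of the LIF, WNT and FGF pathways, were mixed, with 5 higher and 5 lower in EWS-OCT4 versus OCT4, 7 and 5 in EWS-OCT4 versus J1, and 6 and 5 in OCT4 versus J1 cells. Within them, Socs3, a feedback target of LIF and STAT3 signalling, was 73.0 ± 4.29 CPM in EWS-OCT4, 187 ± 7.78 CPM in OCT4 and 85.1 ± 5.07 CPM in J1 cells. Spry4, an ERK feedback gene, was 69.4 ± 4.21 CPM in EWS-OCT4, 22.2 ± 0.643 CPM in OCT4 and 119 ± 6.26 CPM in J1 cells. Dusp6, another ERK feedback gene, was 31.9 ± 2.48 CPM in EWS-OCT4, 8.63 ± 0.674 CPM in OCT4 and 14.3 ± 1.01 CPM in J1 cells. In EWS-OCT4 versus J1 cells Spry4 was thus lower and Dusp6 higher, and both were lowest in OCT4 cells. Of the 12 cofactors and reported targets of the 9 genes, 3 were higher and 9 lower in EWS-OCT4 versus OCT4, 6 and 6 in EWS-OCT4 versus J1, and 8 and 3 in OCT4 versus J1 cells. Ncoa3, a coactivator of ESRRB, was 207 ± 7.78 CPM in EWS-OCT4, 309 ± 16.7 CPM in OCT4 and 171 ± 12.7 CPM in J1 cells, highest where Esrrb was lowest. Of 9 paralogs tested, 2 were higher and 4 lower in EWS-OCT4 versus OCT4, 3 and 2 in EWS-OCT4 versus J1, and 4 and 2 in OCT4 versus J1 cells. Tfcp2, a paralog of Tfcp2l1, averaged 12.6 ± 0.510 CPM in EWS-OCT4, 24.8 ± 1.23 CPM in OCT4 and 11.7 ± 0.752 CPM in J1 cells. EWS-OCT4 and J1 cells were thus close for Tfcp2 but 2.85-fold apart for Tfcp2l1. Ubp1, another listed paralog, was instead highest in EWS-OCT4 and lowest in OCT4 cells. It averaged 114 ± 3.46 CPM in EWS-OCT4, 76.4 ± 3.94 CPM in OCT4 and 91.7 ± 4.66 CPM in J1 cells.

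Markers of other cell types moved with the groups in which the 9 factors differed, and in bulk samples fewer cells of a type and less RNA per cell cannot be told apart. The 14 trophectoderm markers summed to 303 to 319.8 CPM in EWS-OCT4, 611 to 655 CPM in OCT4 and 173 to 208 CPM in J1 cells. Of these, 11 were higher and 1 lower in OCT4 versus J1, 9 and 2 in EWS-OCT4 versus J1, and 3 and 8 in EWS-OCT4 versus OCT4 cells. None was at 0, but Elf5 was below 1 CPM in every group. Tspan8 was below 1 CPM in OCT4 cells, and Cdx2 and Gata3 were in J1 cells. The 14 primitive endoderm markers summed to 543 to 557 CPM in EWS-OCT4, 991 to 1029 CPM in OCT4 and 498 to 530.0 CPM in J1 cells. Of the 13 tested, 2 were higher and 9 lower in EWS-OCT4 versus OCT4, 3 higher and 10 lower in EWS-OCT4 versus J1, and 6 higher and 5 lower in OCT4 versus J1 cells, and none was at 0. Among the defining genes, Gata6 averaged 0.382 ± 0.275 CPM in EWS-OCT4, 9.34 ± 0.529 CPM in OCT4 and 1.76 ± 0.753 CPM in J1 cells, and Sox17 was below 1 CPM in every group. Lama1, a laminin chain, carried much of the sum in EWS-OCT4 cells, at 294 ± 4.50 CPM, against 129 ± 2.33 CPM in J1 cells. Of 7 markers of the rare 2-cell-like state that were tested, 7 rose in each stable line against J1. Their summed level was 82.3 to 97.6 CPM in EWS-OCT4, 101 to 116 CPM in OCT4 and 15.8 to 21.4 CPM in J1 cells. Formative and primed markers summed to 223 to 226 CPM in EWS-OCT4, 169 to 176 CPM in OCT4 and 321 to 355 CPM in J1 cells. Of the 12 tested, 7 were higher and 4 lower in EWS-OCT4 versus OCT4 cells. Against J1, 2 were higher and 6 lower in EWS-OCT4 cells, and 0 and 9 in OCT4 cells. Foxp1 averaged 84.1 ± 0.500 CPM in EWS-OCT4, 15.9 ± 0.404 CPM in OCT4 and 69.2 ± 10.1 CPM in J1 cells. Between the stable lines Otx2 went the other way, at 8.73 ± 0.217 CPM in EWS-OCT4 and 30.5 ± 3.70 CPM in OCT4 cells. Both lay below the 76.4 ± 4.27 CPM of Otx2 in J1 cells. Fgf5 and Sox3 were below 1 CPM in every group. The part of these cell types in the levels of the 9 factors was not tested. The 8 mesendoderm markers summed to at most 8.45 CPM and the 8 fibroblast markers to at most 40.1 CPM in the stable lines, against at most 2.96 and 87.5 CPM in J1 cells. The 8 neuroectoderm markers summed to 121 to 124 CPM in EWS-OCT4, 153 to 161 CPM in OCT4 and 112 to 142 CPM in J1 cells.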

How the data were processed

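RNA was extracted with RNAiso Plus and libraries were made with the CORALL V2 kit, per the labels' protocols. The authors deposited raw counts, whole numbers per gene symbol, unnormalized, with a table for each library. GRCm39, STAR, Salmon, fastp and GATK are named in the submitters' processing notes. Versions, annotation, strand use and handling of molecular identifiers were not given in the sources used here. Sample titles gave the groups and replicate numbers.

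Low genes were removed with filterByExpr of edgeR (at least 10 counts, total of at least 15), leaving 16562 of 40213 symbols, and libraries were scaled by TMM factors. One model of the 3 groups was fitted to all 9 libraries (edgeR 4.0.16 under R 4.3.3; robust glmQLFit, glmQLFTest) with Benjamini-Hochberg adjustment at 0.05. Standard errors were obtained as absolute log2 fold change over the root of F. Intervals are at 95% and unadjusted, and cover these libraries only. Chromosome medians were taken over genes that averaged 5 CPM or more over the 9 libraries. The fit was tested on simulated data. Single values were also compared by exact permutation in scipy 1.17.1. The figures were drawn with matplotlib 3.10.9. Libraries of a group differed beyond counting noise (chi-square over its degrees of freedom 3.21 to 29.2).

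The 9 genes, the gene lists and the tests were chosen with earlier results of these data known. The named genes were the 9 in every comparison, the targeted gene, the genes most alike in profile, and up to 2 genes per direction, comparison and list with the largest called changes and at least 5 CPM in the higher group. Bhmt2, Akt2, Ncoa3, Sox17, Elf5, Fgf5, Sox3, Tbx3os1 and the Tcl1b paralogs fall outside this rule and were chosen after their values were seen. Chromosomes, transcript lengths and shared 31-base words came from GENCODE release M21, on another build than the counts, so no gene coordinates are given. Alternatives were RLE and upper-quartile scaling, TMM factors without chromosomes 8, 11, 12, X and Y, leaving out mitochondrial genes and Gm26917, 5 CPM required in 3 libraries, no low-count filter, DESeq2 1.42.0, limma-voom (limma 3.58.1), only the 6 libraries compared, a replicate block, and each library left out.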

Additional observations from a re-analysis of the deposited data

How the results depend on the processing

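Of 27 comparisons of a gene between groups, 21 were called in the fit and in all 19 alternatives, 3 in neither, and 3 changed their call in at least 1 alternative. The number of the 9 genes called lower in EWS-OCT4 versus J1 cells, 1, became 2 with DESeq2, a minimum of 5 CPM in 3 libraries, TMM factors without chromosomes 8, 11, 12, X and Y, or upper-quartile scaling, and ranged from 1 to 2 with a library left out. Esrrb was the gene added, with an adjusted p of 0.0466, 0.0184, 0.0081 and 0.0199 in these, and 0.0461 without J1 replicate 3. The other changes were those given for Prdm14 in EWS-OCT4 versus OCT4 and Spic in EWS-OCT4 versus J1 cells. The replicate numbers did not pair the libraries, since the deviations of same-numbered libraries correlated by -3.17e-05 to 0.0737, and the replicate block changed no call among the 9 genes (Prdm14 in EWS-OCT4 versus OCT4 cells: adjusted p = 0.0369). Other scalings shifted fold changes by at most 0.076 in log2 size (-0.076). For the gene lists, alternatives were chosen after seeing the data. Counts of list genes moved by over 1.5 times, or to or from 0, for other naive genes lower in EWS-OCT4 versus J1 cells, 3 (2 to 6). They also moved for signalling genes higher in EWS-OCT4 versus OCT4 cells, 5 (3 to 5), and lower in EWS-OCT4 versus J1 cells, 5 (2 to 6). Paralog counts moved too, as did several marker lists under the 5 CPM minimum, which removes low genes. Some marker counts also moved in other alternatives. Mesendoderm markers called lower did so in 8 alternatives for EWS-OCT4 versus OCT4 and 10 for OCT4 versus J1 cells. For 2-cell-like markers lower in EWS-OCT4 versus OCT4 cells, 2 alternatives did. ES cell markers called higher ranged from 0 to 2 in EWS-OCT4 versus J1 and 0 to 1 in OCT4 versus J1 cells. The level of Spic, on 28 to 175 counts per library, is the least precise of the 9.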
